A study of Mus musculus with 25 samples.

Results

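Bone marrow neutrophils of mice that lack both Ripk3 and Mlkl (Ripk3-/- Mlkl-/-, the double knockout) were set against neutrophils of wild-type mice. The comparison used 5 of the 25 bulk mRNA libraries of the series, chosen by their genotype labels: 2 double-knockout libraries, numbered 2 and 3 as in the labels, and 3 wild-type libraries. The series asked how the phosphatase Ptpn6 (SHP-1) holds back inflammation that runs through caspase-8 or through Ripk3 and Mlkl, and its other libraries carry single knockouts of Ripk3 or Mlkl, or deletions of Ptpn6 and Casp8. All 5 libraries came from female mice on a C57BL/6J background, aged 6 to 13 weeks and labelled as not inflamed, and the labels name no deletion of Ptpn6 or Casp8 in either group. No promoter or Cre is named for the 2 knockout alleles. The labels do not say whether the libraries of a group came from separate mice, so the p-values measure the spread between these libraries only. One more library carries a title of the double-knockout series but the genotype Mlkl-/- Ptpn6{delta}PMN. It entered no test and is shown only as a check, as the library with conflicting labels.

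Necroptosis is a lytic form of cell death. The kinase RIPK3 is activated by RIPK1, by ZBP1 or by the adaptor TICAM1 (TRIF), and phosphorylates the pseudokinase MLKL, which then permeabilises the plasma membrane. Caspase-8, with FADD and CFLAR, restrains this pathway, and neutrophils are short-lived granulocytes in which it can meet tumour necrosis factor and interleukin-1 signalling.

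Cells were collected where they banded between layers of 68% and 78% Percoll, and reads were 100 bp long and paired. In such a bulk preparation, fewer cells of a type and less RNA per cell cannot be told apart. The 5 libraries held 21811706 to 22496173 estimated counts each, and all 25 held 21598063 to 23187557. Levels are given as CPM, estimated counts scaled to a common library size, which are not corrected for gene length and so compare libraries and not genes. Markers of the labelled cell type were abundant: S100a9, a calcium-binding protein of neutrophils, stood at 20398 to 25110 CPM in wild type and at 20003 and 30755 CPM in the double knockout. Genes were tested with edgeR (quasi-likelihood F test), with p-values adjusted over all genes by the Benjamini-Hochberg method. None of the 14 neutrophil markers passed an adjusted p of 0.05 between the groups (5 had an unadjusted p under 0.05, and DESeq2 called 0).

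Both knocked-out genes had less RNA in the double knockout than in wild type. Ripk3 (chr14:55784995-55788857 in GRCm38.p6) stood at 10.45, 8.58 and 9.91 CPM in the wild-type libraries and at 0.0465 and 0.0425 CPM in the double-knockout libraries. Both double-knockout libraries lay far below every wild-type library, with 2 counts in all against 720. The ratio of the summed levels was 0.00459, with an exact 95% interval of 0.000555 to 0.0166 that covers counting error only. Mlkl (chr8:111311255-111338479) stood at 4.85, 4.29 and 3.50 CPM in wild type and at 0.604 and 0.850 CPM in the double knockout, a log2 change of -2.52 (SE 0.46, adjusted p = 0.0146). Mlkl RNA was thus lower without being near 0. A count summed over a gene does not separate the part that was deleted from the part that was not. Mlkl was also lower in the Ripk3-/- libraries, whose labels name no Mlkl knockout, at 1.85, 1.40 and 1.58 CPM. That change from wild type did not pass the edgeR test (log2 change -1.385, adjusted p = 0.207). Neither did the double knockout minus Ripk3-/- (log2 difference -1.14, adjusted p = 0.974). The part of the deletion in the fall of Mlkl was not tested. Without double-knockout replicate 2 the adjusted p of Mlkl was 0.186, and it passed the test in 2 of the 5 fits that left out 1 library. Ptpn6 stood at 571, 613 and 605 CPM in wild type and at 631 and 551 CPM in the double knockout, and the groups overlapped (log2 change -0.01, adjusted p = 0.983). Casp8, the initiator caspase that opposes necroptosis, stood at 37.9, 33.7 and 33.6 CPM and at 29.7 and 33.5 CPM (log2 change -0.15, SE 0.16, adjusted p = 0.718).

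Across the 16206 genes tested, 169 (1.04%) passed an adjusted p of 0.05 between the double knockout and wild type, 127 higher (0.784%) and 42 lower (0.259%) in the double knockout. The median log2 change of all genes tested was -0.0332, and 46.48% of them lay above 0. Of the 16206 genes, 2312 had an unadjusted p under 0.05, and DESeq2 called 440. The counts given for gene lists are to be read beside these totals. In each of the 169 genes the 2 groups did not overlap, as was the case for 40.2% of all genes tested. The count rested on every library: it was 29, 44 and 41 without wild type replicate 1, 2 and 3, and 19 and 85 without double-knockout replicate 2 and replicate 3. A fit of the 5 libraries alone, which also changes the filter, the scaling and the degrees of freedom, called 833 genes, of which 159 were among the 169.

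**Figure D1:**
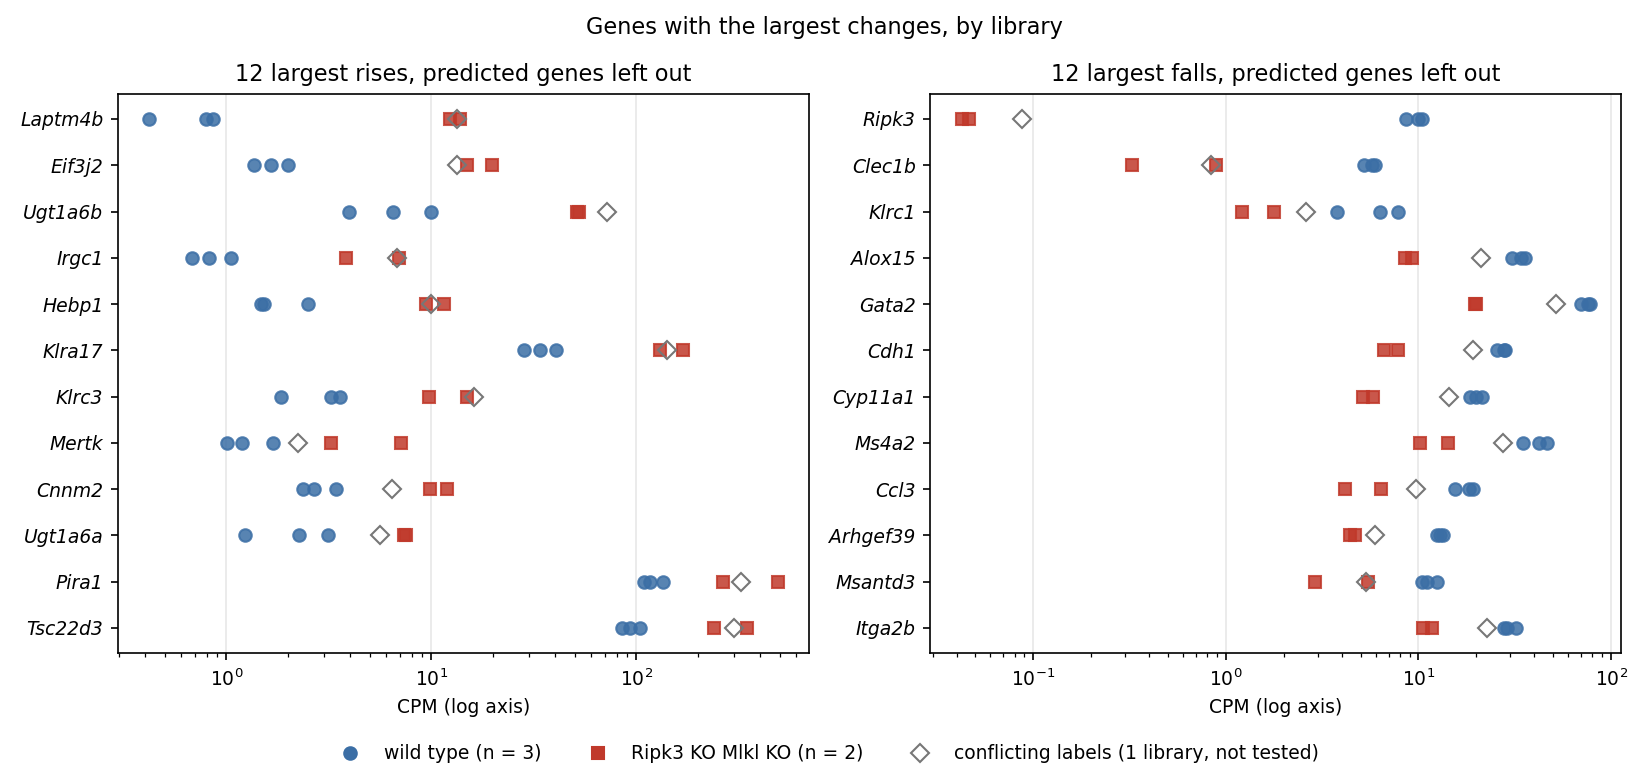
Level in CPM (log axis) of the 12 genes with the largest rises and the 12 with the largest falls among called genes at 5 CPM or more with predicted genes left out, each point 1 library; blue circles are wild type (n = 3), red squares the double knockout (n = 2) and open diamonds the library with conflicting labels. The 2 groups do not overlap in any of the 24 genes, and Ripk3 lies farthest from wild type, at 0.0425 and 0.0465 CPM.

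With predicted genes left out, the 12 largest rises among called genes at 5 CPM or more were led by Laptm4b, which encodes a lysosomal membrane protein. Laptm4b stood at 0.861, 0.421 and 0.796 CPM in wild type and at 12.3 and 13.8 CPM in the double knockout, so it was scarce in all wild-type libraries and at more than 10 CPM in both others (log2 change 4.22, SE 0.88, adjusted p = 0.0259). Hebp1, a heme-binding protein whose N-terminal peptide attracts leukocytes, stood at 1.53, 1.47 and 2.51 CPM and at 11.5 and 9.43 CPM (log2 change 2.51, SE 0.27, adjusted p = 7.05e-05). The remaining rises were Eif3j2, Ugt1a6b, Irgc1, Klra17, Klrc3, Mertk, Cnnm2, Ugt1a6a, Pira1 and Tsc22d3, with log2 changes from 1.64 to 3.37. The predicted genes Gm39008 (2.85), Gm14085 (2.35) and 9930012K11Rik (1.68) had log2 changes within that range. Tsc22d3 (GILZ), a leucine zipper protein induced by glucocorticoids, stood at 84.7, 93.2 and 105 CPM in wild type and at 347 and 240 CPM in the double knockout (log2 change 1.64, adjusted p = 0.0463). Pira1, an activating paired immunoglobulin-like receptor, stood at 109, 135 and 116 CPM and at 488 and 264 CPM (log2 change 1.65, adjusted p = 0.0304), and belongs to a family of near copies among which counts can be split. In both genes the 2 double-knockout libraries lay well above wild type but apart from each other, replicate 2 being the higher. Of the 12 rises, Ugt1a6b, Hebp1 and Klra17 passed the test whichever library was left out. The other 9 lost it in at least 1 of those fits, 4 of them in all 5, with adjusted p values up to 0.374 (Pira1 without double-knockout replicate 2).

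With predicted genes left out, the 12 largest falls were Ripk3, Clec1b, Klrc1, Alox15, Gata2, Cdh1, Cyp11a1, Ms4a2, Ccl3, Arhgef39, Msantd3 and Itga2b. The predicted genes Gm40409 and Gm35147 had log2 changes of -3.10 and -2.07. Gata2, a transcription factor of basophils, mast cells and early progenitors, stood at 75.5, 77.7 and 70.0 CPM in wild type and at 19.71 and 19.97 CPM in the double knockout (log2 change -1.91, SE 0.41, adjusted p = 0.0299). Cyp11a1, the enzyme that starts steroid synthesis from cholesterol, stood at 19.8, 18.5 and 21.2 CPM and at 5.16 and 5.78 CPM (log2 change -1.86, adjusted p = 0.0368). Alox15, a lipoxygenase abundant in eosinophils, stood at 30.6, 33.9 and 35.7 CPM and at 9.20 and 8.50 CPM (log2 change -1.91, adjusted p = 0.0192). The libraries of each group lay close together in these 3 genes, with a clear gap between the groups. Ccl3, an inflammatory chemokine, stood at 19.1, 15.4 and 18.3 CPM and at 4.14 and 6.37 CPM (log2 change -1.74, adjusted p = 0.0302). Of the 12 falls, Ripk3 alone passed whichever library was left out, and 9 lost the test in all 5 such fits, with adjusted p values up to 0.320 (Ccl3 without double-knockout replicate 2).

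Called genes lay close together on 3 chromosomes. Chromosome 6 held 28 called genes of 769 tested (3.64%), against 1.00% of the 14968 genes with a chromosomal position. There were 3 stretches that held 4 or more called genes with no gap over 1 Mb, a description chosen after the values were seen. Within 10 Mb of the targeted loci, 3 of 189 genes were called around Ripk3 (1.59%; Dleu2, Kcnrg and Trim13, all higher) and 1 of 162 around Mlkl (0.617%; Cdh1, lower). Around Ptpn6, which was not targeted in these groups, 18 of 195 were called (9.23%). These include all 12 called genes of the chromosome 6 stretch described below, so the window and the stretch are not separate results. The others were Apobec1, Cracr2a, Gm38880, Plekhg6, Tnfrsf1a and Zfand4.

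**Figure D2:**
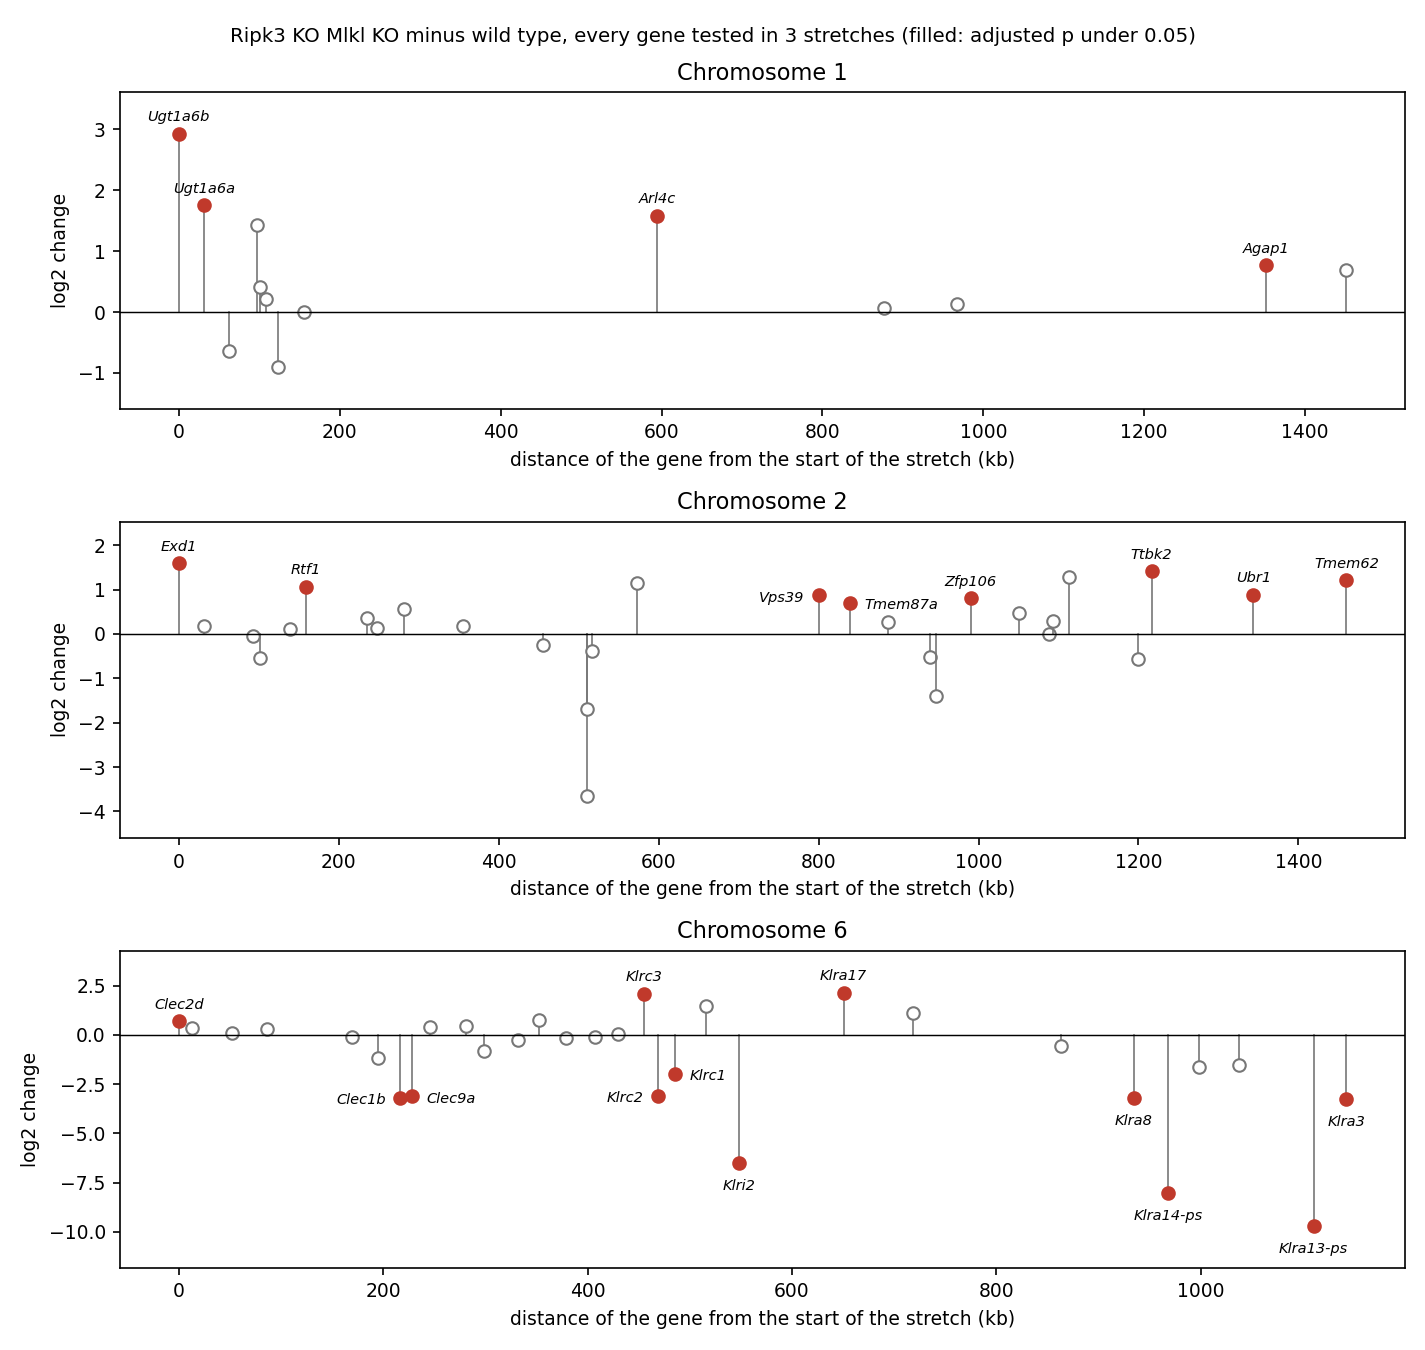
Log2 change of every gene tested (double knockout minus wild type) against the distance of the gene from the start of 3 stretches, in kb; filled red points are called genes, open points are not. On chromosome 2 all 8 called genes lie above 0, and on chromosome 6 called genes lie on both sides of 0, 3 above and 9 below, down to -9.69 for Klra13-ps.

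The stretch on chromosome 6 (chr6:129180615-130337626) is the natural killer gene complex, which encodes C-type lectin-like receptors of natural killer and myeloid cells. Of its 30 genes tested 12 were called, 3 higher and 9 lower. Klra17, a receptor of the Ly49 family, stood at 28.3, 33.8 and 40.5 CPM in wild type and at 169 and 130 CPM in the double knockout (log2 change 2.13, SE 0.20, adjusted p = 2.17e-05). Both double-knockout libraries were more than 3 times the highest wild-type library. Klrc3 (NKG2E) stood at 3.56, 1.85 and 3.22 CPM and at 9.72 and 14.9 CPM (log2 change 2.09, SE 0.44, adjusted p = 0.0279), and Clec2d, a ligand of inhibitory receptors, rose by a log2 change of 0.69 (adjusted p = 0.0463). Without double-knockout replicate 2 the log2 change of Clec2d was 0.36 (adjusted p = 0.551).

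Some falls in that stretch reached 0 or nearly 0 in the double knockout. Klri2, a lectin-like receptor, stood at 5.25, 3.11 and 5.05 CPM in wild type and at 0 and 0.0850 CPM in the double knockout. That is 335 counts against 2, a ratio of 0.00987 with an exact 95% interval of 0.00119 to 0.0359 (adjusted p = 0.000157). The pseudogenes Klra13-ps and Klra14-ps had 342 and 106 counts over the wild-type libraries and 0 over the double-knockout libraries. The exact 95% intervals of their ratios, which cover counting error only, reached up to 0.0179 and 0.0585. Clec1b (CLEC-2), a receptor for podoplanin, stood at 5.95, 5.22 and 5.77 CPM and at 0.325 and 0.893 CPM (log2 change -3.19, SE 0.48, adjusted p = 0.00261). Klra8, Klra3, Klrc1, Klrc2 and Clec9a were the other falls, with log2 changes from -3.25 to -1.99. Without double-knockout replicate 2 the adjusted p of Clec1b was 0.0790, while Klri2 and Klra17 passed whichever library was left out.

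Klrc1, Klrc2 and Klrc3 sit side by side in the stretch and resemble each other, so their estimated counts are uncertain. Of the 31-base words in the transcripts of Klrc3, 53.4% also occur in another gene, as do 53.1% for Klrc1 and 21.6% for Klrc2 (GENCODE M21). Over 663 aligned coding bases Klrc3 and Klrc2 were 94.9% identical. Bases 282 to 371 of the Klrc3-201 coding sequence and bases 333 to 422 of Klrc2-204 are shown because they carry many of the bases that tell the rising gene from the falling one. Capitals mark the 18 differences.
Klrc3: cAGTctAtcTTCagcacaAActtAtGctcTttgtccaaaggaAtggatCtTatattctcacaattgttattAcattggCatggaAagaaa
Klrc2: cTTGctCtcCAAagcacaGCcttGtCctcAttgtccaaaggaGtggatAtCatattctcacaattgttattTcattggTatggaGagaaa
Summed over the 3 Klrc genes, the level was 13.7, 6.82 and 10.7 CPM in wild type and 11.1 and 16.9 CPM in the double knockout, and the groups overlapped. Klra17 shared 0.3% of its words with another gene, against 55.0% for Klra8 and 43.5% for Klra3.

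On chromosome 1 (chr1:88103257-89895282) 4 of 13 genes tested were called, all higher. Ugt1a6b, a UDP-glucuronosyltransferase that conjugates small phenols, stood at 6.46, 3.96 and 9.95 CPM in wild type and at 51.2 and 52.1 CPM in the double knockout (log2 change 2.93, SE 0.28, adjusted p = 2.17e-05). Ugt1a6a rose by a log2 change of 1.75 (adjusted p = 0.0147). These genes were 98.4% identical over 1593 coding bases, and 84.2% of the words of Ugt1a6b occur in another gene. Coding bases 271 to 360 of Ugt1a6b-202 and Ugt1a6a-202 are shown for the part where reads can separate them, with capitals at the 13 differences.
Ugt1a6b: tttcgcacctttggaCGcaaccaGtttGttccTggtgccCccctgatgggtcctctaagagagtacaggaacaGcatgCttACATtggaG
Ugt1a6a: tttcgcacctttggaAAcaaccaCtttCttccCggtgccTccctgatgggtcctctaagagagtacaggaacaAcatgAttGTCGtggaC
Their summed level was 8.73, 7.07 and 11.2 CPM in wild type and 58.7 and 59.5 CPM in the double knockout. The rise thus did not rest on how counts were shared between the pair. Ugt1a6a also shared 52.0% of its words with Ugt1a7c, which was not in the sum, and sharing of counts beyond the pair was not tested. Arl4c, a small GTPase of the ARF family, stood at 56.96, 51.5 and 58.8 CPM and at 169 and 164 CPM (log2 change 1.58, SE 0.18, adjusted p = 0.000156) and passed whichever library was left out. Agap1, a GTPase-activating protein for ARF proteins, rose by a log2 change of 0.76 (adjusted p = 0.0463, and up to 0.375 with 1 library left out).

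On chromosome 2 (chr2:119516505-121007849) 8 of 29 genes tested were called, all higher: Exd1, Rtf1, Vps39, Tmem87a, Zfp106, Ttbk2, Ubr1 and Tmem62. Vps39, a subunit of the HOPS tethering complex of late endosomes, stood at 38.8, 39.1 and 37.5 CPM in wild type and at 69.2 and 71.2 CPM in the double knockout (log2 change 0.87, SE 0.12, adjusted p = 0.00106), and passed whichever library was left out. Rtf1, a factor of RNA polymerase II elongation, stood at 45.4, 46.1 and 43.3 CPM and at 104 and 84.1 CPM (log2 change 1.07, adjusted p = 0.00369). Ubr1, a ubiquitin ligase of the N-degron pathway, stood at 37.9, 37.6 and 37.2 CPM and at 72.1 and 67.0 CPM (log2 change 0.89, adjusted p = 0.0101). Wild-type libraries were within a few CPM of each other in these 3 genes, and both double-knockout libraries lay above them. Without double-knockout replicate 2, Rtf1 and Ubr1 had adjusted p values of 0.0928 and 0.112. Not all of the stretch was higher: its median log2 change was 0.26, with 20 of 29 genes above 0.

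Near that stretch lies Eif3j1, which with its near copy Eif3j2 encodes a subunit of the translation initiation factor eIF3. Eif3j2, on another chromosome, stood at 1.37, 1.64 and 1.99 CPM in wild type and at 19.7 and 14.9 CPM in the double knockout (log2 change 3.37, SE 0.53, adjusted p = 0.00419). Eif3j1 (chr2:122028580-122053632) moved the other way, from 16.1, 13.5 and 15.5 CPM to 0.186 and 0 CPM, without passing the test (log2 change -7.31, SE 2.05, adjusted p = 0.102). All 783 aligned coding bases of the pair were identical, and 94.9% of the words of Eif3j2 occur in another gene. Their summed level was 17.4, 15.1 and 17.5 CPM in wild type and 19.8 and 14.9 CPM in the double knockout, where the groups overlapped. Klra16, a Ly49 gene that RefSeq places outside the assembled chromosomes, had 0 counts in all wild-type libraries and 70 over the double-knockout libraries. For the ratio of double knockout to wild type, the exact 95% interval, which covers counting error only, began at 30.5.

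Genes of the pathway around the deleted pair were read from a list of 28 members of necroptosis and the caspase-8 complex, of which 2 rose and 2 fell. The falls were Ripk3 and Mlkl. Both rises were receptors of tumour necrosis factor: Tnfrsf1a (TNFR1), which can start necroptosis, stood at 278, 337 and 299 CPM in wild type and at 517 and 463 CPM in the double knockout (log2 change 0.69, SE 0.16, adjusted p = 0.0399). Tnfrsf1b (TNFR2), which lacks a death domain, stood at 120, 118 and 123 CPM and at 249 and 174 CPM (log2 change 0.81, SE 0.15, adjusted p = 0.0160). Double-knockout replicate 2 was the higher in both. Tnfrsf1a lost the test with any of the 5 libraries left out and Tnfrsf1b with 4 of them, at adjusted p values up to 0.303 and 0.297. The ligand gene Tnf stood at 29.4, 34.2 and 27.7 CPM and at 10.1 and 24.8 CPM (adjusted p = 0.505). Ripk1, the kinase upstream of Ripk3, stood at 55.2, 59.0 and 53.0 CPM and at 81.7 and 67.4 CPM (adjusted p = 0.163). The median of the list was 0.07, with 16 of 28 members above 0, beside -0.0332 for all genes tested.

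Interferon-response genes encode antiviral proteins induced by interferons. All 28 of those listed had a log2 change above 0 in the double knockout, with a median of 0.78 beside -0.0332 for all genes. No member passed the main test, 23 had an unadjusted p under 0.05, and DESeq2 called 9, all higher. Over all 16206 genes tested the last 2 counts were 2312 and 440. Oasl2, an oligoadenylate synthetase-like protein, stood at 287, 354 and 341 CPM in wild type and at 822 and 519 CPM in the double knockout (log2 change 1.03, adjusted p = 0.0788). Rsad2 (viperin), an antiviral enzyme, stood at 111, 172 and 170 CPM and at 463 and 294 CPM (log2 change 1.33, adjusted p = 0.0801). Both double-knockout libraries lay above every wild-type library in 24 of the 28 genes, while 40.2% of all genes tested had no overlap in either direction. Replicate 2 was the higher of the pair in all 28, and wild-type replicate 1 was the lowest wild-type library by mean. The mean log2 CPM over the list was 5.52, 5.85 and 5.72 in wild type and 6.85 and 6.14 in the double knockout. Without double-knockout replicate 2 the log2 change of Oasl2 was 0.66 (adjusted p = 0.549). The median of the list ran from 0.49 to 1.06 over the alternatives tried.

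Promoters of such genes often hold the interferon-stimulated response element, searched here as GAAANNGAAA. Of the 28 genes, 21 had a promoter in the RefSeq table for GRCm38.p6, and in 9 of these (42.9%) the 250 bases before the start site held the motif on either strand. The same held for 3.34% of all 11754 tested genes with a promoter, for 4 of 88 called higher (4.55%) and for 1 of 30 called lower (3.33%). Windows of 60 bases around the motif are shown for Oas3 (chr5:120777700-120777759, minus strand), Trim30a (chr7:104465195-104465254, minus strand) and Rsad2 (chr12:26456538-26456597, minus strand). They are the most abundant members that hold the motif, and Rsad2 was taken up after its values were seen. Capitals mark the motif or its reverse complement, read along the strand of the gene.
Oas3: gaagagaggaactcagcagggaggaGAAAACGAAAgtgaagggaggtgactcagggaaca
Trim30a: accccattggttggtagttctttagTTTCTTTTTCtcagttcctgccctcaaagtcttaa
Rsad2: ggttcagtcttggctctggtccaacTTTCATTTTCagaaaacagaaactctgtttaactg
Oas3 stood at 307, 416 and 337 CPM in wild type and at 701 and 509 CPM in the double knockout (log2 change 0.78, adjusted p = 0.220). Trim30a stood at 201, 212 and 226 CPM and at 344 and 301 CPM (log2 change 0.60, adjusted p = 0.227). A match of letters is a description and shows no binding.

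**Figure D3:**
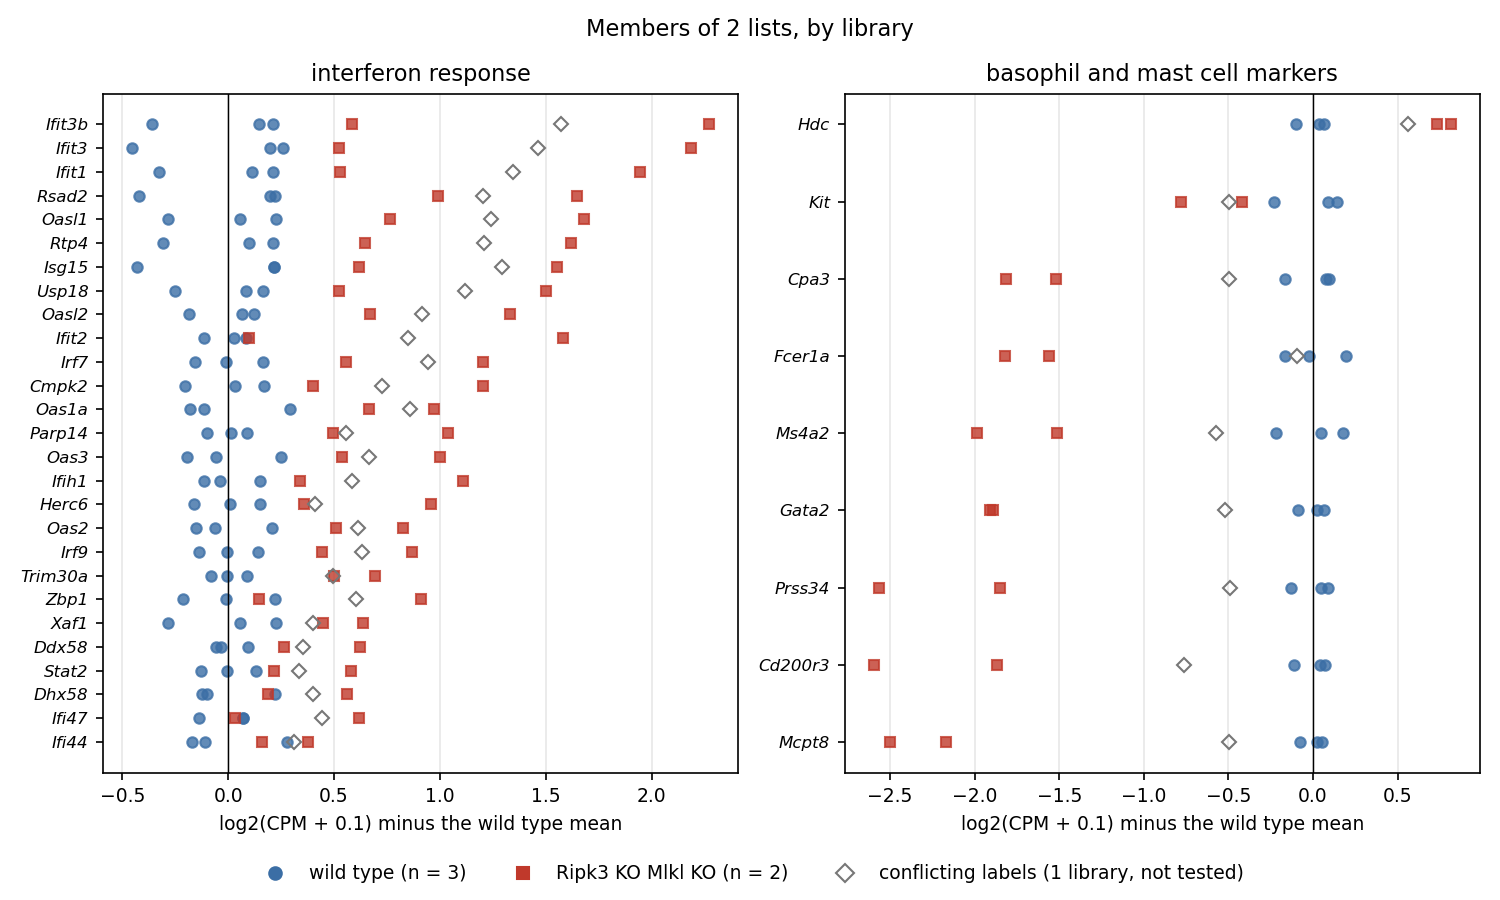
Log2(CPM + 0.1) minus the wild-type mean for 27 of the 28 interferon-response genes (left) and the 9 basophil and mast cell markers (right), each point 1 library. On the left double-knockout replicate 2 lies to the right of wild type in every gene plotted; on the right both double-knockout libraries lie left of wild type in 8 of 9 genes, and Hdc lies to the right.

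Granule genes were read in 3 lists by the stage at which neutrophils make them, and the lists were not tested against each other. Azurophil granule proteins are made by promyelocytes, and 8 of 10 of their genes had a log2 change below 0, with a median of -1.45 that ran from -2.20 to -0.49 over the alternatives tried. No member passed the main test, 9 had an unadjusted p under 0.05, and DESeq2 called 1. Those 9 include the 2 members above 0, Hexa and Gusb, with log2 changes of 0.34 and 0.36. Mpo, the myeloperoxidase of these granules, stood at 240, 185 and 154 CPM in wild type and at 79.6 and 17.6 CPM in the double knockout (log2 change -1.99, adjusted p = 0.294). Both double-knockout libraries were below wild type, and replicate 3 was far below replicate 2. Specific granule genes had a median of -0.21, with none called among 16 by edgeR or DESeq2 and 1 at an unadjusted p under 0.05. Gelatinase granule and late maturation genes had a median of 0.34, with 14 of 17 above 0 and 1 called. That gene was Il1r2, the decoy receptor of interleukin-1, at 127, 127 and 147 CPM in wild type and at 250 and 287 CPM in the double knockout (log2 change 1.01, SE 0.23, adjusted p = 0.0450). Il1r2 lost the test with any of the 5 libraries left out, at adjusted p values of 0.0979 to 0.194.

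Cell cycle genes had 19 of 20 log2 changes below 0, with a median of -0.79 that ran from -1.05 to -0.46 over the alternatives. No member was called by edgeR or by DESeq2, and 5 had an unadjusted p under 0.05, beside 2312 of the 16206 genes tested. Top2a, a topoisomerase of dividing cells, stood at 136, 118 and 117 CPM in wild type and at 72.8 and 54.4 CPM in the double knockout (log2 change -0.96, adjusted p = 0.442). Mki67, the Ki-67 proliferation antigen, stood at 249, 240 and 209 CPM and at 164 and 145 CPM (log2 change -0.59, adjusted p = 0.530). In both genes the groups did not overlap, as was the case for 40.2% of all genes tested. Progenitor markers also had a median below 0, at -0.43 over 8 genes, with no call by edgeR or DESeq2 and 1 gene at an unadjusted p under 0.05. The share of dividing precursors in the preparations was not measured otherwise.

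Among genes of cell survival and inflammation, single members were called. Bbc3 (PUMA), a BH3-only inducer of apoptosis, stood at 9.71, 11.95 and 9.03 CPM in wild type and at 19.7 and 21.1 CPM in the double knockout (log2 change 1.00, SE 0.22, adjusted p = 0.0304). It was the 1 call among 14 genes of the BCL2 family, 12 of which lay above 0, with a median of 0.30. Mcl1, the main survival protein of neutrophils, stood at 856, 926 and 1025 CPM and at 1549 and 1280 CPM without passing (log2 change 0.60, adjusted p = 0.186). Of 23 NF-kB targets and inflammatory cytokines, Ccl3 was the 1 call, and the median was 0.11. Zfp36 (tristetraprolin), which marks cytokine RNAs for decay, stood at 854, 840 and 844 CPM and at 466 and 571 CPM (log2 change -0.71, adjusted p = 0.378). None of 16 inflammasome and pyroptosis genes (median 0.16) and none of 21 antigen presentation genes (median 0.31) was called by edgeR or DESeq2. Of these, 3 and 8 had an unadjusted p under 0.05, beside 2312 of the 16206 genes tested. Bbc3 lost the test with any of the 5 libraries left out, at adjusted p values of 0.0569 to 0.172.

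**Figure D4:**
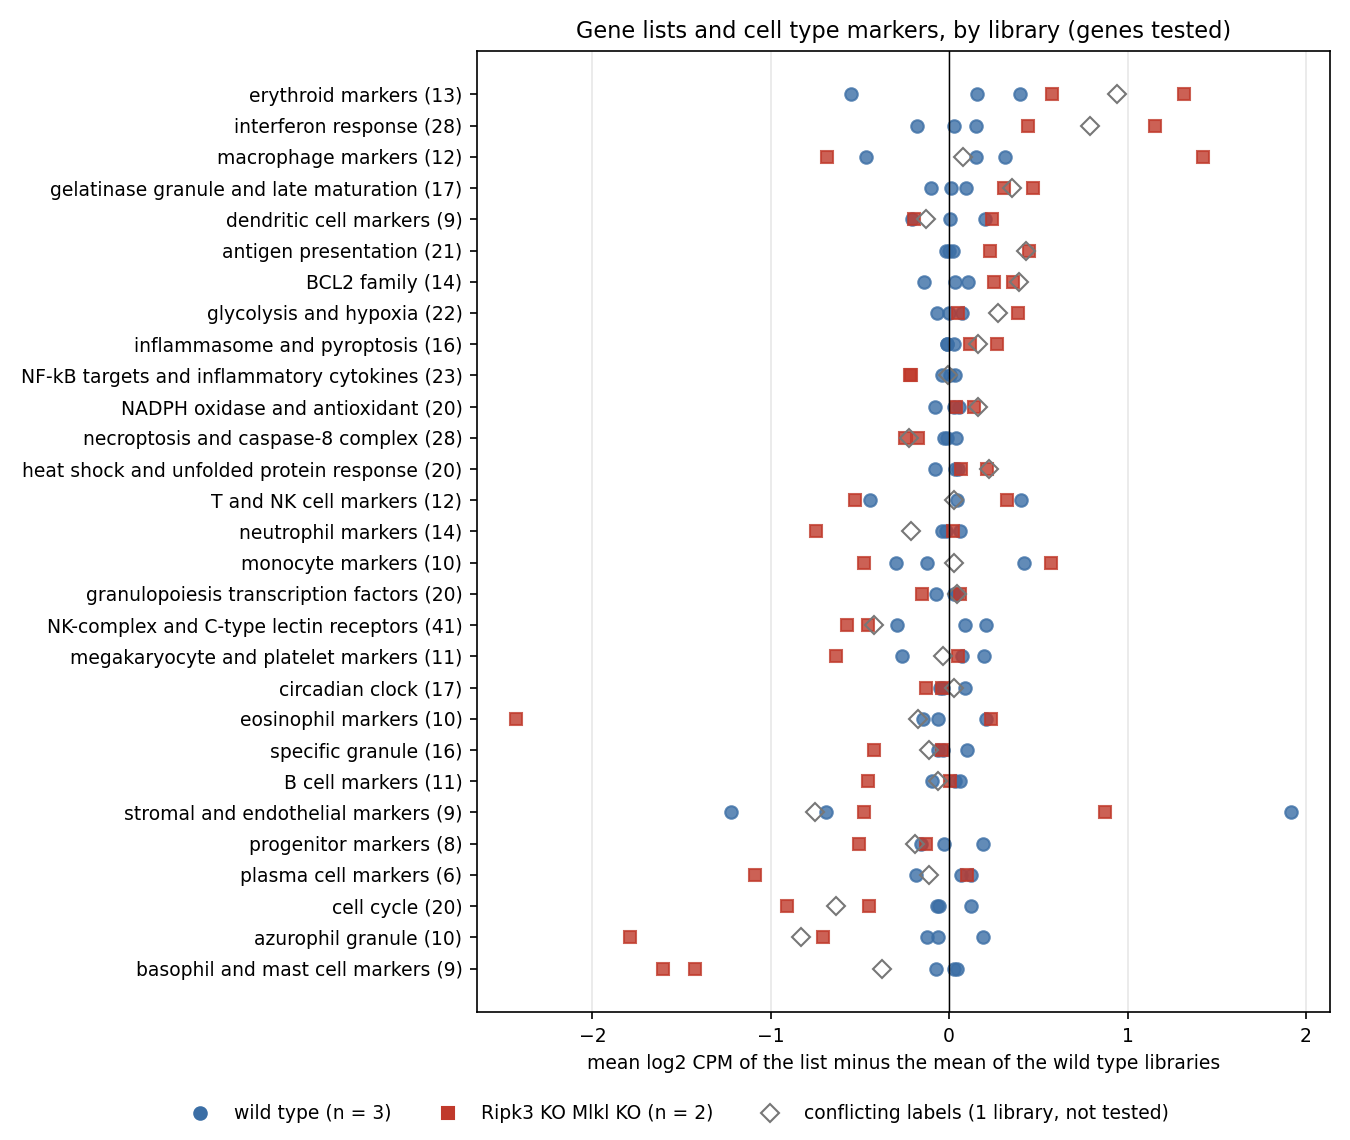
Mean log2 CPM of each gene list or cell type marker list minus the mean of the wild-type libraries, each point 1 library; the number of genes tested is in brackets and lists are ordered by their median log2 change. The double-knockout libraries lie to the left for basophil and mast cell markers and for azurophil granule genes, to the right for interferon-response genes, and on both sides for macrophage markers.

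Markers of other cell types differed between the preparations. Basophil and mast cell markers had 2 calls among 9 genes, Gata2 and Ms4a2, both lower, where 1.04% of all genes tested were called. They had 1 member above 0 and a median of -1.75. DESeq2 called 7 of them, all lower, beside 440 of the 16206 genes tested. Prss34, a basophil protease, stood at 402, 345 and 391 CPM in wild type and at 105 and 64.0 CPM in the double knockout (log2 change -2.17, adjusted p = 0.0521), and Mcpt8, another, at 132, 123 and 135 CPM and at 28.8 and 22.9 CPM (log2 change -2.33, adjusted p = 0.0508). Hdc, the histidine decarboxylase that neutrophils also express, went the other way, from 554, 609 and 622 CPM to 987 and 1046 CPM (adjusted p = 0.186). The summed level of the 9 markers, Hdc included, was 1284 to 1363 CPM in wild type and 1192 to 1197 CPM in the double knockout. Falls of Gata2, Ms4a2, Cyp11a1, Ccl3, Cdh1, Itga2b and Alox15 came from the same libraries as these low markers, and the part of basophils in them was not tested gene by gene. With the mean level of these markers as a covariate, 10 genes were called in place of 169, of which 9 were among the 169: Arl4c, Clec1b, Gm40409, Gucy2c, Hebp1, Klra16, Klra17, Ripk3 and Ugt1a6b. The log2 change of Gata2 was then -0.36. Gata2 is itself 1 of the 9 markers averaged in the covariate, so a smaller change was built in. The covariate also separated the groups, at 5.98 to 6.10 in wild type and 4.45 to 4.63 in the double knockout. The covariate and the genotype thus cannot be told apart over these 5 libraries.

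Erythroid markers had 13 of 13 genes above 0, with a median of 0.91 that was -0.41 with the basophil and mast cell covariate. No member was called by edgeR or by DESeq2, 1 had an unadjusted p under 0.05, and their summed level was 2718 to 5981 CPM in wild type and 5070 to 10532 CPM in the double knockout. With their mean as a covariate, 104 genes were called. Macrophage markers had a median of 0.78 with 1 call, Mertk, a receptor for engulfing dying cells, at 1.68, 1.01 and 1.19 CPM in wild type and at 3.25 and 7.14 CPM in the double knockout (log2 change 1.999, SE 0.38, adjusted p = 0.0161). Their summed level was 87.5 to 130 CPM in wild type and 84.98 to 267 CPM in the double knockout, the high value being replicate 3. The median of the macrophage list was -0.95 without double-knockout replicate 3 and -0.07 with the basophil and mast cell covariate. Without replicate 3 the log2 change of Mertk was 1.32 (adjusted p = 0.196). Eosinophil markers were low in replicate 3 only, at a mean log2 CPM of 0.48 against 3.15 in replicate 2 and 2.76 to 3.12 in wild type, while Alox15 was low in both. The defining marker Epx was at 0.170 CPM in replicate 3 and 19.9 CPM in replicate 2. Csf1r, the receptor for macrophage colony-stimulating factor, was the 1 call among 10 monocyte markers (log2 change 0.76, adjusted p = 0.0261, and 0.271 without double-knockout replicate 2). The part of these cells in the results was not tested.

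The remaining lists held few calls. Dendritic cell markers had 1 call among 9 (Clec9a, lower) and a median of 0.32, and megakaryocyte and platelet markers had 2 among 11 (Itga2b and Clec1b, both lower) and a median of -0.13. No call fell among 11 B cell, 6 plasma cell, 12 T and NK cell or 9 stromal and endothelial markers, with medians of -0.33, -0.46, 0.04 and -0.38, and none there had an unadjusted p under 0.05 or was called by DESeq2. No gene was called among 20 of NADPH oxidase and antioxidant defence, 22 of glycolysis and hypoxia, 20 of the heat shock and unfolded protein response, 20 granulopoiesis transcription factors and 17 circadian clock genes. Their medians lay between -0.14 and 0.19, 2 to 4 genes a list had an unadjusted p under 0.05, and DESeq2 called 0, 1, 1, 1 and 0 of them. Over all 16206 genes tested, 2312 had such a p and DESeq2 called 440. The list of 41 natural killer complex and C-type lectin receptors, which overlaps the chromosome 6 stretch, had 3 rises and 7 falls and a median of -0.10.

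The single knockouts give the same genes a second setting, although they were set against the same 3 wild-type libraries, so that their values share those controls. Hebp1 had log2 changes of 2.29 in Ripk3-/- (adjusted p = 6.90e-05), 2.23 in Mlkl-/- (adjusted p = 0.000127) and 2.51 in the double knockout. Klra17 had 1.71, 2.08 and 2.13, and Clec1b -3.51, -2.83 and -3.19, in the same order. Gata2 had -0.47 in Ripk3-/- (adjusted p = 0.906), -1.09 in Mlkl-/- (adjusted p = 0.113) and -1.91 in the double knockout. Interferon-response genes had medians of 0.21, 0.16 and 0.78, and basophil and mast cell markers -0.29, -0.92 and -1.75. Ripk3 itself was lower in Mlkl-/- libraries than in wild type, at 4.78, 2.51 and 2.78 CPM (log2 change -1.52, adjusted p = 0.0229).

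In direct tests against each single knockout, the double knockout gave at most 1 called gene. Against Ripk3-/- edgeR called no gene (0%) and DESeq2 called 2. Before adjustment 597 of the 16206 genes tested fell under 0.05, a share smaller than 0.05 itself. Against Mlkl-/- 1 gene was called (0.00617%), Ripk3 itself, with a log2 difference of -6.08 (adjusted p = 0.000246), and DESeq2 called 3. Without double-knockout replicate 3, the counts were 13 against Ripk3-/- and 17 against Mlkl-/-. For Gata2 the double knockout minus Ripk3-/- was -1.44 and minus Mlkl-/- was -0.82, and neither difference passed the test (adjusted p = 0.974 and 1).

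**Figure D5:**
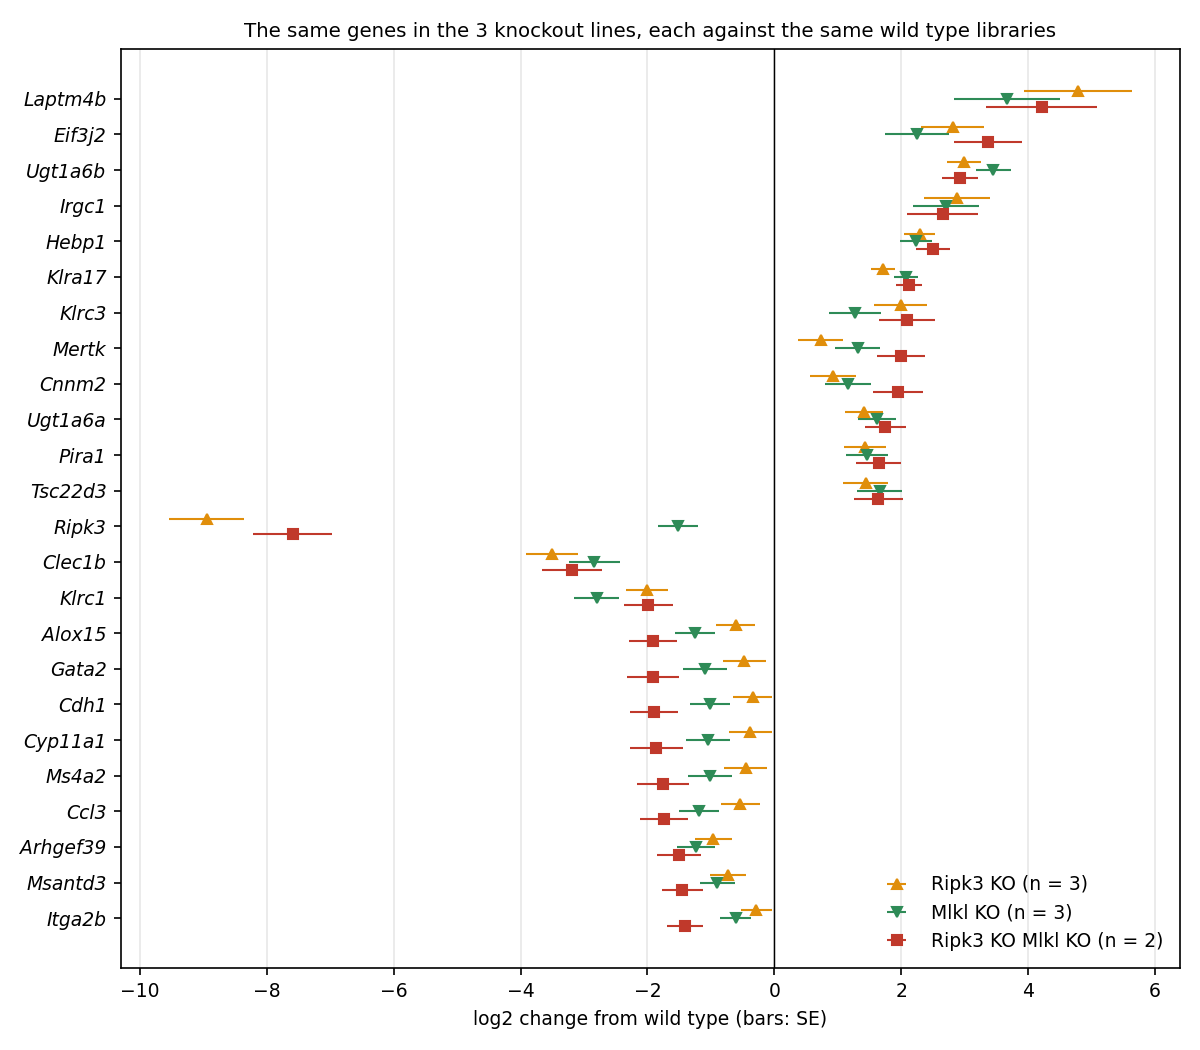
Log2 change from wild type, with its SE as a bar, of the same 24 genes in Ripk3-/- (n = 3), Mlkl-/- (n = 3) and the double knockout (n = 2), all against the same 3 wild-type libraries. Genes such as Hebp1 and Klra17 have similar values in all 3 lines, while Gata2 has -0.47, -1.09 and -1.91.

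The library with conflicting labels was compared with these values without being placed in a group. It had 2 counts of Ripk3 (0.0878 CPM), Mlkl at 0.747 CPM and Ptpn6 at 582 CPM. The 2 libraries labelled Mlkl-/- Ptpn6{delta}PMN that carry a matching title had Ripk3 at 2.91 and 4.52 CPM, Mlkl at 0.324 and 0.873 CPM and Ptpn6 at 182 and 193 CPM. It lay above every wild-type library in 127 of the 127 genes called higher, where 30.4% of all genes tested did so, and below every wild-type library in 41 of the 42 called lower, where 33.2% of all genes did so. It was nearer the double-knockout mean than the wild-type mean in 90.6% of the genes called higher and in 64.3% of those called lower, beside 61.8% of all genes tested. The called genes were picked with these same wild-type libraries, so the shares over all genes tested are no matched baseline. The exception among the genes called lower was Gm15453, at 0.176 CPM against a lowest wild-type value of 0.159. Basophil and mast cell markers in it had a mean log2 CPM of 5.68, between 4.45 to 4.63 in the double knockout and 5.98 to 6.10 in wild type.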

How the data were processed

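The authors deposited estimated counts (expected counts) for each gene symbol. Per the submitters' processing notes the tools were Salmon 0.14.1 and DESeq2, with the build GRCm38.p6. The way from transcripts to gene totals is not given in the sources used here. The counts were rounded to whole numbers, and 23 libraries in 9 groups with 2 or more libraries were fitted together in edgeR 4.0.16 (R 4.3.3): TMM scaling, filterByExpr (minimum count 10, minimum total 15), the quasi-likelihood F test with 14 residual degrees of freedom, and Benjamini-Hochberg adjustment over 16206 genes. Genes were called under 0.05. SE is the log2 change divided by the square root of F. With 2 libraries against 3, an exact two-sided permutation test of 1 gene could not go below 0.1.

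Named genes were the 4 targeted genes, the 12 largest rises and falls among called genes at 5 CPM or more without overlap, and, per list, called members and the 4 most abundant; neighbours, near copies, Rsad2, and genes of the closing section were picked after their values were seen. Predicted genes were left out of these rankings, counted, and named only where a larger change makes it necessary. Members and lists (16 pathway, 13 marker) were chosen with earlier results of these data known. RefSeq GRCm38.p6 gave positions to 32204 of 35741 symbols. Alternatives used DESeq2 1.42.0, covariates, a replicate block, and each library left out. The package limma 3.58.1 was loaded beside edgeR, and no limma test was run. Tested on simulated data for this comparison over 16206 genes, the fit found 51 of 100 genes set to a 2-fold change and 91 of 100 set to a 4-fold change, and 3 others were called. The changed genes left out the scarcest ones, and only the double-knockout group was given changes. These rates therefore do not cover the scarcest genes. Figures used matplotlib 3.10.9. One member of the interferon list is counted but not reported here by name.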

Additional observations from a re-analysis of the deposited data

Results flagged for a closer look

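Ripk3 differed between the double knockout and Mlkl-/-, which both lack Mlkl: the log2 difference was -6.08 (adjusted p = 0.000246), from 0.0465 and 0.0425 CPM against 4.78, 2.51 and 2.78 CPM. The direct test between these knockout groups flagged it, and it follows the genotype labels.

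The library with conflicting labels, which no comparison used, was set against the wild-type libraries. All 127 genes called higher in the double knockout lay above every wild-type library in it, beside 30.4% of all genes tested. These 127 genes were picked with the same wild-type libraries, so the share over all genes is no matched baseline. The group of that library was not inferred from this.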

How the results depend on the processing

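The count of 169 called genes in the double knockout against wild type was 165 with DESeq2's size factors and 188 with no filter on low counts. It was 440 with the DESeq2 test, 104 with the erythroid covariate, 10 with the basophil and mast cell covariate, 833 in a fit of the 5 libraries alone, and 19 to 85 with 1 library left out. With a replicate block it was 101. Replicate numbers 2 and 3 are shared, with correlations of deviations of 0.174 and 0.196, too few pairs to treat the libraries as paired. The deviations of 2 double-knockout libraries from their mean mirror each other, so these 2 values are not independent. Against Ripk3-/- the count of 0 became 2 with the DESeq2 test and ranged from 0 to 13 with 1 library left out. Against Mlkl-/- the count of 1 became 2 with no filter, 3 with the DESeq2 test and 2 in a fit of the libraries compared, and ranged from 1 to 17 with 1 library left out. Of the 169 genes, 7 were called under all 12 alternatives (Arl4c, Gucy2c, Hebp1, Klra16, Klra17, Ripk3 and Ugt1a6b) and 22 under at least 10. All 169 kept their sign in 11 alternatives, and 166 did in the fit of the 5 libraries alone. That fit has its own filter, and a gene removed by it was not counted as keeping its sign. Of the 29 list medians, 17 kept their sign under all alternatives and 12 did not, among them those of erythroid, macrophage, eosinophil, monocyte and neutrophil markers. Among the named genes 2 changed sign, neither of them called. Ptpn6 had a log2 change of 0.0146 with DESeq2's size factors and with the DESeq2 test, and -0.114 to 0.0817 with 1 library left out, being above 0 at 0.0078 without wild type replicate 2 and at 0.0817 without double-knockout replicate 3. Casp8 had 0.0629 with the basophil covariate. A group left with 1 library took its spread from the other groups. With 2 double-knockout libraries, changes near 2-fold were often not detectable.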

Other observations

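Some called genes outside the lists are given here, chosen after their values were seen and with no test of any shared function. Txnip, which binds thioredoxin and limits glucose uptake, stood at 882, 977 and 956 CPM in wild type and at 1534 and 1379 CPM in the double knockout (log2 change 0.63, adjusted p = 0.0302). Its relatives among the alpha-arrestins, Arrdc3 and Arrdc4, rose by log2 changes of 0.90 (adjusted p = 0.0395) and 0.91 (adjusted p = 0.00951). Arrdc3 lost the test in 4 of the 5 fits that left out 1 library, with adjusted p values up to 0.417, and Arrdc4 in 2, with values up to 0.182. Pnpla2, the triglyceride lipase that opens fat droplets, stood at 149, 182 and 150 CPM and at 312 and 316 CPM (log2 change 0.97, adjusted p = 0.0235). Map1lc3b, an LC3 protein of autophagosomes, rose by a log2 change of 0.74 (adjusted p = 0.0451). In Txnip and Pnpla2 the groups lay well apart.

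Slc40a1, the iron exporter ferroportin, stood at 300.0, 329 and 336 CPM in wild type and at 538 and 453 CPM in the double knockout (log2 change 0.62, adjusted p = 0.0368). Slc25a37, the mitochondrial iron importer mitoferrin-1, stood at 284, 359 and 348 CPM and at 662 and 649 CPM (log2 change 0.99, adjusted p = 0.0192). Rxra, a nuclear receptor for retinoids, stood at 19.3, 16.4 and 18.4 CPM and at 38.0 and 36.0 CPM (log2 change 1.04, SE 0.14, adjusted p = 0.000823) and passed whichever library was left out. Tlr8, an endosomal sensor of RNA, rose by a log2 change of 0.82 (adjusted p = 0.0403) and Gab2, a docking protein of receptor signalling, by 0.81 (adjusted p = 0.0358). Txnip, Pnpla2, Map1lc3b, Slc40a1, Slc25a37, Tlr8 and Gab2 lost the test with any of the 5 libraries left out.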
